A study of Mus musculus with 2 samples.

Results

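The 9 genes described here, Trem2, Gpnmb, Apoe, Spp1, Fabp5, Cd9, Lpl, Lgals3 and Atp6v0d2, are those used to recognise lipid-associated macrophages. They were chosen by name, from 32285 genes counted, and all 9 were measured in both libraries. Each gene was followed through the myeloid cells of AT3 tumors, and its co-expression was examined in single macrophages, taken as cells with at least 30 UMIs (sequence tags that let each captured RNA molecule be counted once) of C1qa, C1qb and C1qc together. These cells are called C1q macrophages below. They numbered 738 of 3565 kept cells of the Pgd fl/fl library and 808 of 2798 kept cells with LysMCre, and 35 and 58 cells lay within 5 UMIs of that limit.

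Lipid-associated macrophages are cells of adipose tissue, atherosclerotic plaques, injured tissue and tumors that take up lipid and cell debris. Trem2 is a surface receptor for lipids, lipoproteins and dying cells which signals through the adaptor Tyrobp, and in several mouse tissues macrophages without it do not acquire the full program. Apoe, Lpl and Fabp5 bind, release or carry lipid, Gpnmb and Atp6v0d2 belong to the endolysosomal system, Lgals3 encodes a galactose-binding lectin, Spp1 a secreted matrix protein and Cd9 a membrane tetraspanin.

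The study asked what loss of 6-phosphogluconate dehydrogenase (6PGD, the product of Pgd and an enzyme of the oxidative pentose phosphate pathway) does in tumor myeloid cells. AT3 cells, a mammary tumor line, had grown for 30 days in female mice aged 6 to 12 weeks, and immune cells of 10 mice per genotype were pooled into 1 library each. The mice carried loxP-flanked Pgd alleles in both groups, without Cre (Pgd fl/fl, labelled WT) or with Cre from the lysozyme M locus Lyz2 (Pgd fl/fl LysMCre, labelled 6PGDKO), which recombines in macrophages, monocytes, neutrophils and a part of dendritic cells. The suspensions carried different oligonucleotide tags and were run together, and no library with Cre alone was analysed here. With 1 library per genotype there is no measure of the spread between mice and no test, so all 95% intervals below cover counting error only and are too narrow where few cells hold most UMIs of a gene. Levels are given as CPM, the UMIs of a gene per 1000000 UMIs of the same cells, and paired values stand for Pgd fl/fl first and Pgd fl/fl LysMCre second.

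Of the 9 genes, 6 have promoter windows in the RefSeq table of GRCm38.p6, the patch release of mm10, the build named in the submitters' processing notes. The stretches below run from 100 bases before the annotated start to 20 bases after it. Trem2 and Gpnmb are shown as the members whose windows hold the letters TGANTCA, here in capitals. N stands for any base, and the pattern reads alike on both strands. The consensus of AP-1 factors has C or G in place of N, which Gpnmb (TGACTCA) meets and Trem2 (TGAATCA) does not. Trem2 lies at chr17:48346301-48346420 and Gpnmb at chr6:49036418-49036537, both on the plus strand.
Trem2: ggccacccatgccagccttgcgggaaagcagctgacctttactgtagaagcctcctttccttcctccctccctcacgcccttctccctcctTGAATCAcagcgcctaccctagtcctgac
Gpnmb: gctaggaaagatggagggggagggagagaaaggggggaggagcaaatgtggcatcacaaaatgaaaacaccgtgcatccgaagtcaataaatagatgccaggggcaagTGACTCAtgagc
The motif begins 9 bases before the Trem2 start and at base 9 after the Gpnmb start. It occurs in 7.81% of the 32851 windows of the table, each from 250 bases before to 50 bases after a start. Over the 9 windows of the 6 genes, read on both strands, CATGTG was found for Cd9 (14.2% of all windows), TATAAA for Apoe and Spp1 (13.6%), GAGGAAG for Spp1 and Trem2 (13.6%), AGGTCA for Trem2 (16.3%) and CACGTG for none (7.15%). A match describes the letters and no binding was measured.

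Depth was similar in the cells compared. Of 27245625 and 28827045 UMIs over all barcodes, the C1q macrophages held 9595737 and 12550252, with medians of 12465.5 and 14037.5 UMIs per cell, and the libraries shared 0 barcodes. Pgd, the deleted gene, had 960 and 369 UMIs in C1q macrophages (a log2 ratio of -1.77), and Lyz2, whose locus carries Cre, was at 2984 and 23.2 CPM. Both libraries held T cells and B cells beside myeloid cells, although the labels name CD45+ cells in one sentence and CD11b+ cells in another. Cells with at least 2 UMIs of T or B cell markers made up 29.7% and 42.9% of the C1q macrophages. These cells, which include any doublets, were kept, and results without them are given for a part of the genes.

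Myeloid cells were clustered without the 9 genes, so that no subcluster was defined by them. A set of 3 subclusters carried macrophage markers and are called by a leading gene, Hes1 macrophages (199 and 182 cells), Vcam1 macrophages (205 and 129) and Ccl8 macrophages (58 and 50). A further subcluster of 57 and 102 cells, led by Retnla, Lyz1, Arg1 and Fn1, had its highest marker score for macrophages but more markers of another type than of macrophages among its top 10 genes and stays unnamed, as do the cycling Pclaf subcluster and a subcluster led by H2-M5 and Epcam. At a finer resolution of 1.6, leading genes of the Retnla-Arg1 subcluster fell in separate subclusters. A subcluster led by Gpnmb, Mmp12, Arg1 and Atp6v0d2 (57 and 79 cells) was named macrophage. Another led by Retnla, Lyz1 and Fn1 (11 and 41 cells) was named classical monocyte. The Retnla-Arg1 subcluster may thus be mixed, and its make-up by genotype was not examined. Classical monocyte-like, mature dendritic cell (DC)-like, cDC1-like and neutrophil-like cells were named from their markers. At resolution 1.6 a classical monocyte subcluster led by Ly6i and Plac8 held 68 and 154 cells. A subcluster led by Ace (22 and 47 cells) scored highest for non-classical monocytes and stayed unnamed. One led by Cd209a (17 and 43 cells) was named Cd209a dendritic cell. The classical monocyte-like cells may thus be mixed too, and their make-up by genotype was not examined. Myeloid subclusters with T or B cell transcripts are referred to as lymphocyte-transcript subclusters.

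Among groups with cells in both libraries, 5 of the 9 genes were highest in the Retnla-Arg1 subcluster in each library. Trem2 (chr17:48346401-48352276) was there at 577 and 547 CPM, next to 483 and 434 in Ccl8 macrophages, 270 and 293 in Hes1 macrophages and 186 and 217 in Vcam1 macrophages. The ranges of the 2 libraries did not overlap between any neighbours among these 4 groups. Trem2 stood at 55.2 and 47.8 in classical monocyte-like cells and below 9 in mature DC-like, cDC1-like and neutrophil-like cells and in the H2-M5 subcluster.

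The genes of lipid handling did not share 1 site. Apoe (chr7:19696244-19701310), the apolipoprotein that macrophages secrete with cholesterol, was highest in Ccl8 macrophages, at 35908 and 25992 CPM. Hes1 macrophages had 21430 and 21192, and their range overlapped neither with that of the Ccl8 macrophages nor with the 19502 and 20347 of Vcam1 macrophages. Lpl (chr8:68880555-68906932), the lipase that frees fatty acids from lipoproteins, was at 376 and 513 in the Retnla-Arg1 subcluster. It was between 99.4 and 163 in the 3 macrophage subclusters, whose ranges overlapped from one to the next, and at 18.4 and 27.9 in classical monocyte-like cells. Fabp5 (chr3:10012585-10016610), a cytosolic fatty acid carrier, was highest outside the macrophages, at 3059 and 4677 CPM in mature DC-like cells. The Retnla-Arg1 subcluster came next with 1732 and 2109, while Hes1 and Vcam1 macrophages had between 304 and 529, a range that overlapped with the 389 and 411 of T cell-like cells.

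Of the endolysosomal genes, Gpnmb (chr6:49036518-49058182), a transmembrane glycoprotein of lysosomes and melanosomes, was at 187 and 228 CPM in the Retnla-Arg1 subcluster. In Hes1 macrophages, the next group, it was at 20.4 and 33.4. Atp6v0d2 (chr4:19876838-19922566), a d2 subunit of the proton pump that acidifies lysosomes, was at 101 and 48.5 in the Retnla-Arg1 subcluster and at most 12.3 in every other group with cells in both libraries, with 0 UMIs in both libraries among mature DC-like and cDC1-like cells and in the Pclaf subcluster. The 16 mast cell-like cells, found in Pgd fl/fl LysMCre alone, had it at 105 CPM, from 12 UMIs. Counts of Atp6v0d2 were low, 73 and 55 UMIs in the Retnla-Arg1 subcluster.

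Lgals3 (chr14:47373860-47386167), the lectin that gathers at damaged lysosomes, was at 4824 and 4170 CPM in the Retnla-Arg1 subcluster and between 1995 and 2782 in the 3 macrophage subclusters. Spp1 (chr5:104435111-104441053), which encodes osteopontin, was highest outside the myeloid cells, at 1259 and 2908 CPM in a cluster of epithelial character led by Mgp and Krt8. The myeloid group with the most Spp1 was the Retnla-Arg1 subcluster, with 527 and 869, which overlapped with the 242 and 559 of Ccl8 macrophages. Cd9 (chr6:125460266-125494760), a partner of integrins in the plasma membrane, was highest in neutrophil-like cells, at 1832 and 2028 CPM, and at 845 and 762 in the H2-M5 subcluster. In the Retnla-Arg1 subcluster Cd9 was at 424 and 460, and Vcam1 and Hes1 macrophages had between 206 and 259.

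**Figure D1:**
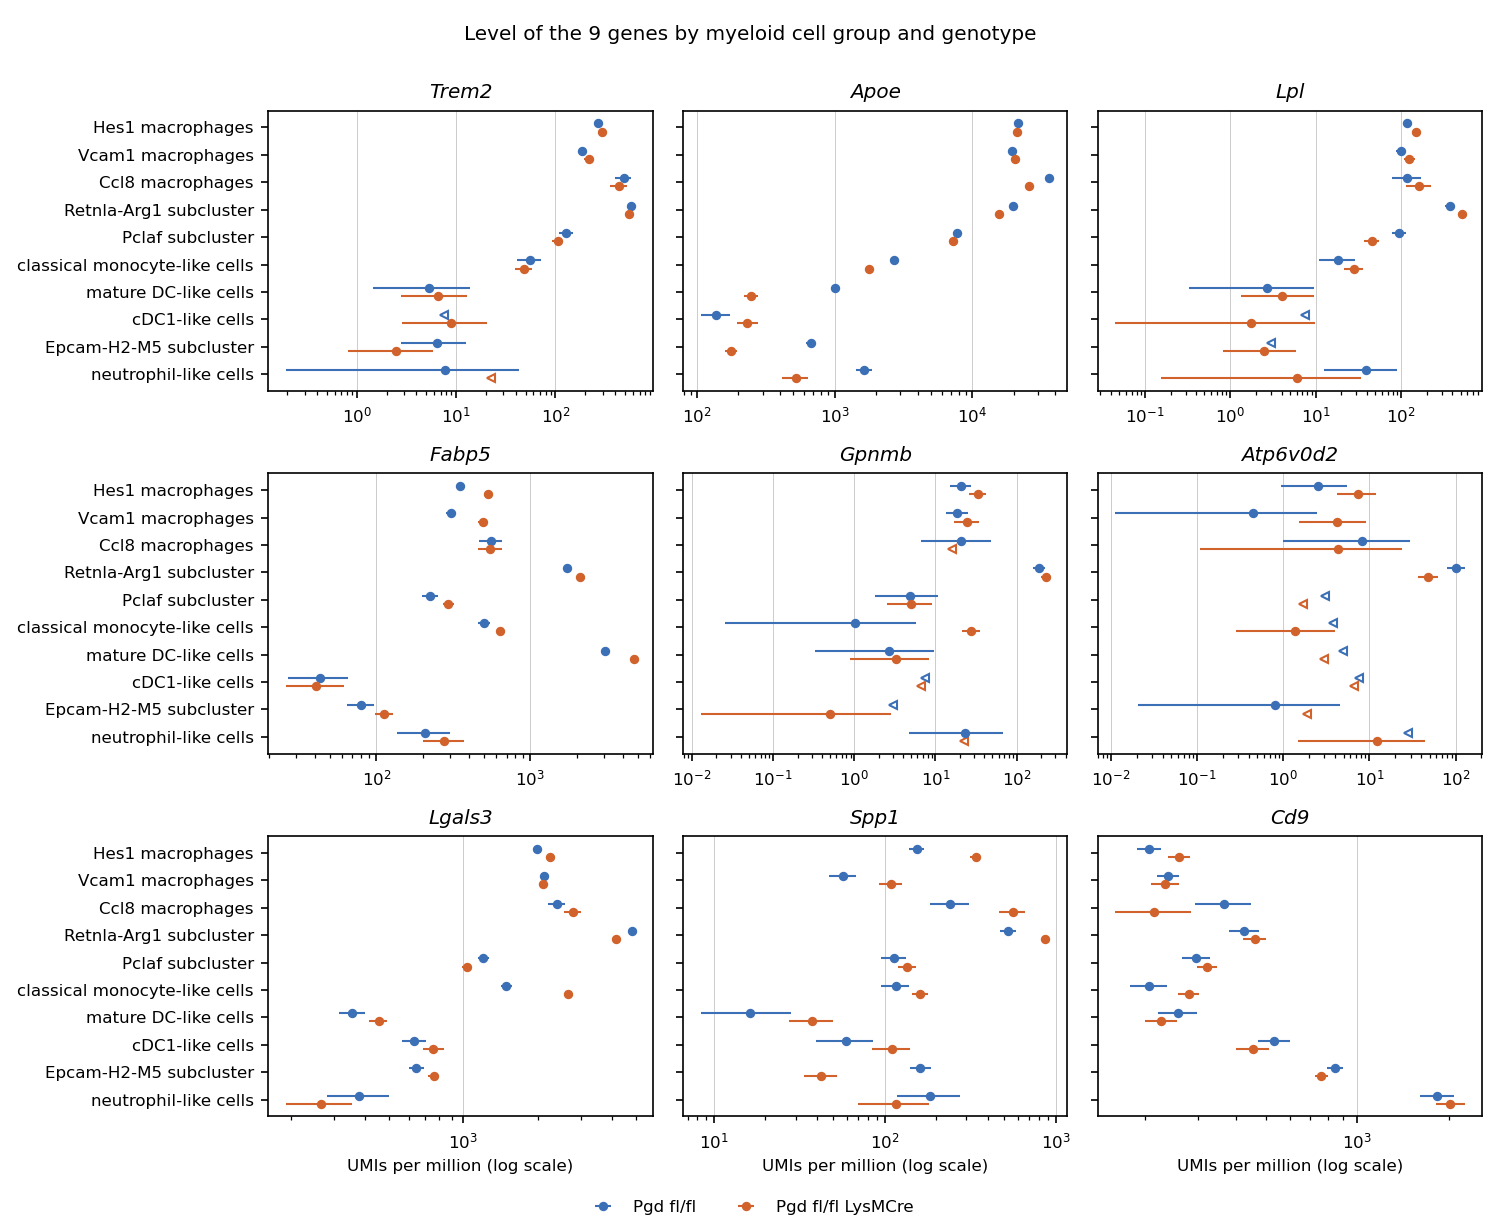
Level of the 9 genes in 10 myeloid cell groups (rows), as CPM on a log scale that differs between panels; filled points are the 2 libraries with exact Poisson 95% intervals, and open triangles mark the upper limit where a library had 0 UMIs. Trem2, Lpl, Gpnmb, Atp6v0d2 and Lgals3 reach their highest values among these groups in the Retnla-Arg1 subcluster, Fabp5 in mature DC-like cells and Cd9 in neutrophil-like cells.

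Between the genotypes, Spp1 showed the largest difference among the 9 genes in C1q macrophages. It was at 160.4 and 271 CPM, a log2 ratio of Pgd fl/fl LysMCre over Pgd fl/fl of 0.76 (95% interval 0.67 to 0.85). A ratio past 1.5-fold was used to count a gene as higher or lower, which 9.76% of the 13180 genes with at least 10 UMIs met in the higher direction and 6.15% in the lower. Of the 9 genes, 1 was past 1.5-fold higher, Spp1, and 0 lower, and their median log2 ratio of 0.07 was next to a median of 0.06 over all genes. A counting interval of the log2 ratio lay above 0 for 5 of the 9 genes and below 0 for 1, against 17.0% and 9.61% of all genes. The interval narrows as UMIs rise, and all genes were not matched to the members for UMIs. These counts and shares are therefore not comparable.

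Over all C1q macrophages the receptor did not differ beyond counting error. Trem2 had 2129 and 2746 UMIs, or 222 and 219 CPM, and the interval of its log2 ratio ran from -0.10 to 0.06. Within subclusters, C1q macrophages of the Vcam1 group had a log2 ratio of 0.22 (0.00 to 0.44), those of the Retnla-Arg1 group -0.04 (-0.23 to 0.14) and those of the lymphocyte-transcript subclusters 0.34 (0.16 to 0.53). In C1q macrophages among classical monocyte-like cells, 23 and 69 cells with 36 and 46 Trem2 UMIs, it was -1.22 (-1.88 to -0.55), at 114 and 48.7 CPM.

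Apoe was at 16946 and 13714 CPM in C1q macrophages, a log2 ratio of -0.31 (-0.32 to -0.30). Its difference was not found in the 2 largest macrophage subclusters, where the log2 ratio was -0.01 (-0.03 to 0.01) in Hes1 and 0.07 (0.05 to 0.09) in Vcam1 macrophages. It was negative in C1q macrophages of the Ccl8 (-0.47), Retnla-Arg1 (-0.26), lymphocyte-transcript (-0.19) and classical monocyte-like (-1.43) groups, and positive in the Pclaf subcluster (0.15, 0.11 to 0.18). The make-up of the gate moved with it. Vcam1 macrophages were 26.0% and 13.1% of the C1q macrophages, classical monocyte-like cells 3.12% and 8.54%, and lymphocyte-transcript cells 20.5% and 31.9%. The part of these shares in the ratio was not tested. Over the C1q macrophages of only the 3 macrophage subclusters and the Retnla-Arg1 subcluster, a choice made after the data were seen, the log2 ratio of Apoe was -0.05.

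Fabp5 was higher in Pgd fl/fl LysMCre, at 435 and 608 CPM, with a log2 ratio of 0.48 (0.43 to 0.54). Its ratio was above 0 in C1q macrophages of the Hes1 (0.58), Vcam1 (0.71), Retnla-Arg1 (0.34), classical monocyte-like (0.48), lymphocyte-transcript (0.26) and Pclaf (0.25) groups, and in mature DC-like cells (0.61, 0.54 to 0.68). In C1q macrophages of the Ccl8 group it was -0.16 (-0.55 to 0.22). Outside the myeloid cells it was 0.51 (0.27 to 0.75) in the Mgp-Krt8 cluster and 0.08 (-0.01 to 0.17) in T cell-like cells. Lpl was at 108 and 114 in the C1q macrophages (0.07, -0.04 to 0.19), with 0.32 (0.08 to 0.55) in Hes1 macrophages and -0.65 (-1.06 to -0.23) in the Pclaf subcluster. Its ratio over macrophages depended on the processing and ran from 0.03 to 0.48 over the alternatives described below.

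Gpnmb had 250 and 445 UMIs in C1q macrophages, a log2 ratio of 0.44 (0.22 to 0.67). These UMIs came from few cells. Its UMIs were found in 57 of 738 and 87 of 808 cells, and the 5% of cells with the most held 92.0% and 87.9% of them. Without the 5 cells of each library with most Gpnmb UMIs the ratio was 0.70, and thinned to 5000 UMIs per cell it was 0.97, or 0.95 in another random draw. Atp6v0d2 was at 9.07 and 7.65 CPM (-0.25, -0.68 to 0.19). It was lower in the Retnla-Arg1 subcluster, at 101 and 48.5, with a log2 ratio of -1.06 (-1.59 to -0.54), while the few UMIs in Hes1 macrophages, 6 and 16, went the other way. The ratio over all C1q macrophages turned positive, to 0.10, without cells that held lymphocyte UMIs.

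Lgals3 was at 1996 and 2069 CPM in C1q macrophages, a log2 ratio of 0.05 (0.02 to 0.08). Its sign depended on how macrophages were taken, and was negative at -0.035 over clusters named macrophage. In classical monocyte-like cells Lgals3 was higher in Pgd fl/fl LysMCre, at 1492 and 2670.2 CPM, a log2 ratio of 0.84 (0.76 to 0.92). Outside the myeloid cells its ratio was 0.52 (0.39 to 0.65) in T cell-like cells and 0.59 (0.41 to 0.76) in the Mgp-Krt8 cluster. Cd9 was at 223 and 267 in C1q macrophages (0.26, 0.18 to 0.34). The ratio of Cd9 was near 0 in Vcam1 macrophages (-0.04, -0.25 to 0.16) and below 0 in Ccl8 macrophages (-0.73, -1.27 to -0.20).

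Spp1 was higher in Pgd fl/fl LysMCre in 6 of the 7 groups of C1q macrophages examined. The log2 ratio was 1.15 (0.96 to 1.34) in Hes1, 0.93 (0.58 to 1.28) in Vcam1 and 1.28 (0.82 to 1.75) in Ccl8 macrophages, and 0.80 (0.63 to 0.98) in the Retnla-Arg1 subcluster. In Ccl8 macrophages few cells carried it, 6 of 58 and 13 of 50, and 1 cell per library held 44 of 59 and 50 of 130 UMIs. Among C1q macrophages of the Hes1 group 3 of the 9 genes (Spp1, Gpnmb and Atp6v0d2) were past 1.5-fold higher and 0 lower, against 9.83% and 8.91% of all genes there. In the Vcam1 group it was 2 of 8 (Spp1 and Fabp5) higher and 0 lower, against 10.3% and 11.3%, and in the Retnla-Arg1 group 1 higher (Spp1) and 1 lower (Atp6v0d2), against 17.7% and 12.8%. The Gpnmb UMIs of Hes1 macrophages came from 7 and 16 cells, and only 3 of 48 and 14 of 72 lay outside the top 5 cells. Atp6v0d2 had 6 and 15 UMIs in C1q macrophages of the Hes1 group, with an interval of -0.0006 to 3.10. In the Hes1 group the calls of Gpnmb and Atp6v0d2 thus rest on few cells or UMIs. In the 23 and 69 C1q macrophages among classical monocyte-like cells the log2 ratio of Spp1 was -1.0 (-1.41 to -0.59), and in all classical monocyte-like cells it was 0.48 (0.17 to 0.80), where 1 cell held 55 of the 113 UMIs of Pgd fl/fl. More cells held the transcript as well. After each cell was thinned to 5000 UMIs, Spp1 was found in 17.6% (14.8% to 20.7%) of 669 Pgd fl/fl and 28.6% (25.4% to 31.9%) of 766 Pgd fl/fl LysMCre C1q macrophages, against 27.6% and 39.6% without thinning. T cell-like cells thinned alike had 2.14% and 2.83%. Over all T cell-like cells Spp1 was low, at 5.23 and 12.6 CPM from 31 and 53 UMIs. Its log2 ratio there was 1.27, with a counting interval above 0, next to 0.76 in all C1q macrophages. The part of background RNA in the macrophage ratio was not tested.

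Epithelial transcripts moved in the same direction. The 8 epithelial markers summed to 52.8 and 111.6 CPM in the C1q macrophages, with 5 and 7 of them found and Krt19 at 0 in both. Spp1 in the Mgp-Krt8 cluster itself was higher in Pgd fl/fl LysMCre, by a log2 ratio of 1.21 (1.11 to 1.31). Without C1q macrophages that held at least 2 UMIs of those markers, an alternative added after the data were seen, the log2 ratio of Spp1 was 0.81. Classical monocyte markers were at 211 and 387 CPM and T cell markers at 607 and 936, and their part in the ratios was not tested.

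**Figure D2:**
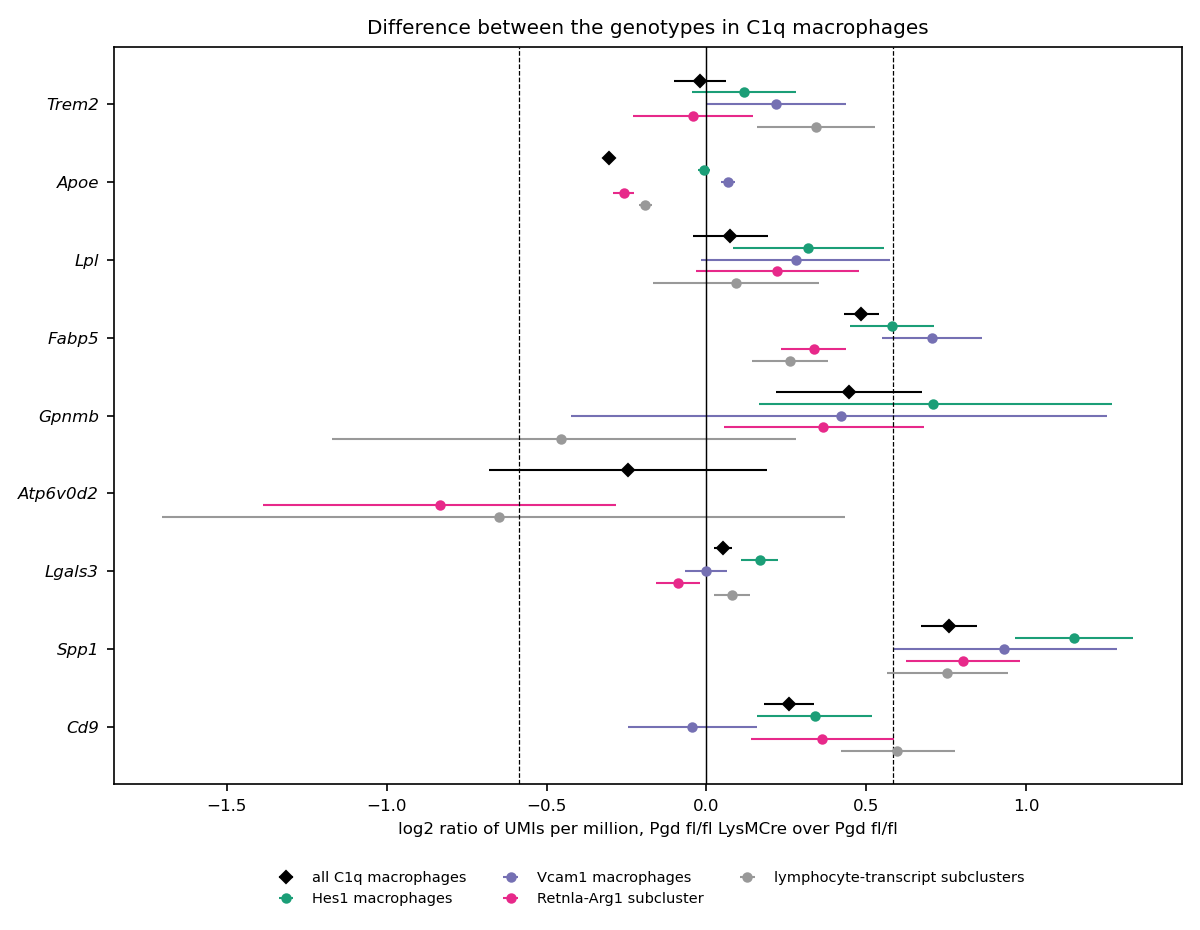
Log2 ratio of CPM, Pgd fl/fl LysMCre over Pgd fl/fl, for each gene in all C1q macrophages (black diamonds) and in those of 4 subcluster groups (coloured points), with exact conditional 95% counting intervals; groups with under 10 UMIs in a library are left out and dashed lines mark 1.5-fold. Spp1 is right of the dashed line in all 5 series, and Apoe is left of 0 over all C1q macrophages but at -0.01 and 0.07 in Hes1 and Vcam1 macrophages.

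Ratios of all 9 genes were higher once cells with lymphocyte transcripts were left out. Without C1q macrophages that held lymphocyte UMIs, 519 and 461 cells were left, and the median log2 ratio of the 9 genes was 0.30. In these cells 3 of the 9, Spp1 (1.02), Gpnmb (1.00) and Fabp5 (0.60), were past 1.5-fold higher. The median and the share past 1.5-fold over all genes were not computed there, so neither value has a background. Apoe was then at -0.17 and Trem2 at 0.10.

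Monocyte-like and dendritic cells were read in the same way, without the C1q gate. In classical monocyte-like cells 3 of the 8 genes with at least 10 UMIs were past 1.5-fold higher in Pgd fl/fl LysMCre (14.3% of all genes) and 1 lower (10.8%). Gpnmb there had 1 UMI in 105 Pgd fl/fl cells and 61 UMIs in 22 of 239 Pgd fl/fl LysMCre cells, of which 1 cell held 26, a log2 ratio of 4.75 (2.22 to 10.08). Apoe summed lower in Pgd fl/fl LysMCre in classical monocyte-like cells (2692 and 1776 CPM), mature DC-like cells (1013 and 248), neutrophil-like cells (1647 and 521) and the H2-M5 subcluster (668 and 176), and higher in cDC1-like cells (137 and 233). Single cells held much of these sums, 561 of 753 UMIs in mature DC-like, 115 of 214 in neutrophil-like and 416 of 829 in H2-M5 cells of Pgd fl/fl, and 62 of 131 in cDC1-like cells of Pgd fl/fl LysMCre. Without the 5 cells of each library with most Apoe UMIs, the log2 ratio was -0.05 (-0.14 to 0.04) in classical monocyte-like, 0.26 (-0.18 to 0.73) in mature DC-like, 0.30 (-0.40 to 1.03) in neutrophil-like, 0.14 (-0.21 to 0.51) in H2-M5 and -0.09 (-0.78 to 0.61) in cDC1-like cells. In the T cell-like cells of the same libraries, where Apoe stood at 274 and 270, the log2 ratio was -0.02 (-0.13 to 0.09), and a UMI of Apoe was found in 39.4% and 41.7% of cells thinned to 5000 UMIs. Levels of Apoe in mature DC-like, cDC1-like and H2-M5 cells of Pgd fl/fl LysMCre lay at or below this T cell level.

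In single C1q macrophages the genes differed in how many cells carried them. Thinned to 5000 UMIs, which left out 69 and 42 shallower cells, Apoe was found in 98.8% and 95.2% of cells, Lgals3 in 97.2% and 96.7%, Cd9 in 50.7% and 59.4%, Trem2 in 46.5% and 49.6%, and Lpl in 26.0% and 29.5%. Gpnmb was found in 4.33% and 6.53% and Atp6v0d2 in 2.54% and 2.22%. Of the T cell-like cells, 421 of 1089 and 283 of 636 had at least 5000 UMIs and were thinned alike. Gpnmb was found in 1.43% and in 0 of the 283 (which allows up to 1.30%), Trem2 in 1.43% and 1.77% and Lgals3 in 27.3% and 42.4%. The part of background RNA in these T cell shares was not tested. For Fabp5, found in 46.5% and 57.4% of C1q macrophages, the T cell share was 35.4% and 51.2%, and with LysMCre the intervals of both shares overlapped.

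Most C1q macrophages carried part of the set. The median was 4 of the 9 genes in both libraries, 0 cells had none, and 2 of 669 and 3 of 766 cells had all 9. At least 7 genes were found in 31 cells of Pgd fl/fl, 4.63% (3.17% to 6.51%), and 56 cells of Pgd fl/fl LysMCre, 7.31% (5.57% to 9.39%). The intervals overlap. Without thinning the shares were 12.7% and 20.2%. The Retnla-Arg1 subcluster held the highest share, 39.5% of 43 C1q macrophages in Pgd fl/fl and 29.4% of 68 in Pgd fl/fl LysMCre, with overlapping intervals. In Vcam1 macrophages the counts were 0 of 183, which allows up to 2.0%, and 7 of 99 (7.07%, 2.89% to 14.0%). Over the Hes1, Vcam1, Ccl8 and Retnla-Arg1 groups together the shares were 6.13% of 424 and 11.2% of 356 cells.

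**Figure D3:**
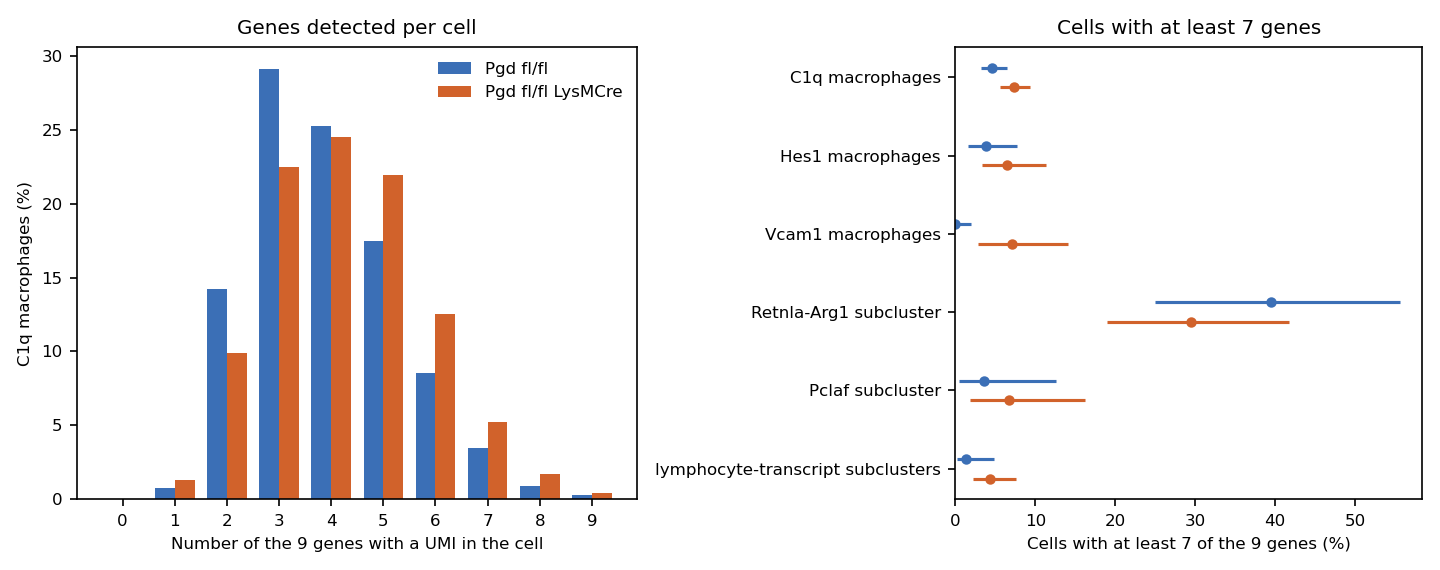
Left, percent of C1q macrophages (669 Pgd fl/fl and 766 Pgd fl/fl LysMCre cells thinned to 5000 UMIs) by the number of the 9 genes with a UMI; right, percent with at least 7 genes, with exact binomial 95% intervals, in all C1q macrophages and in 5 subcluster groups. The bars for 3 genes are highest in Pgd fl/fl and those for 4 in Pgd fl/fl LysMCre, and the Retnla-Arg1 subcluster reaches 39.5% and 29.4%.

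The 9 genes were positively correlated cell by cell. All 36 pairs had a positive Pearson r in both libraries, on log-normalized counts of cells thinned to one depth, with medians of 0.173 and 0.167. Over all pairs of genes detected at least as often as the rarest member the median r was 0.00047 and 0.00056 and the 95th percentile 0.0741 and 0.0702, which 33 and 34 of the 36 pairs exceeded. The pairs of all genes were matched on the detection of the rarest member alone, not pair by pair. The members are also a set chosen as belonging together. Cells of a library share its preparation and background RNA, and most of the values were small. Among the closest pairs were Trem2 with Apoe (0.363 and 0.409), Gpnmb with Fabp5 (0.315 and 0.366) and Gpnmb with Atp6v0d2 (0.293 and 0.461).

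Apart from its pair with Trem2, Apoe had low values with several members. Its r with Spp1 was 0.0305 and 0.105, with Cd9 0.0793 and 0.0372, with Lgals3 0.184 and 0.0339, and with Gpnmb 0.0823 and 0.101. With the mean of the C1q genes that defined the gate, Apoe had an r of 0.558 and 0.629 and Trem2 0.219 and 0.321, whereas Gpnmb, Spp1, Fabp5, Cd9 and Atp6v0d2 lay between -0.0205 and 0.0800. Lgals3 (0.231 and 0.148) and Lpl (0.113 and 0.197) lay between them. The log of the original depth had an r between -0.207 and 0.0688 with the members after thinning.

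**Figure D4:**
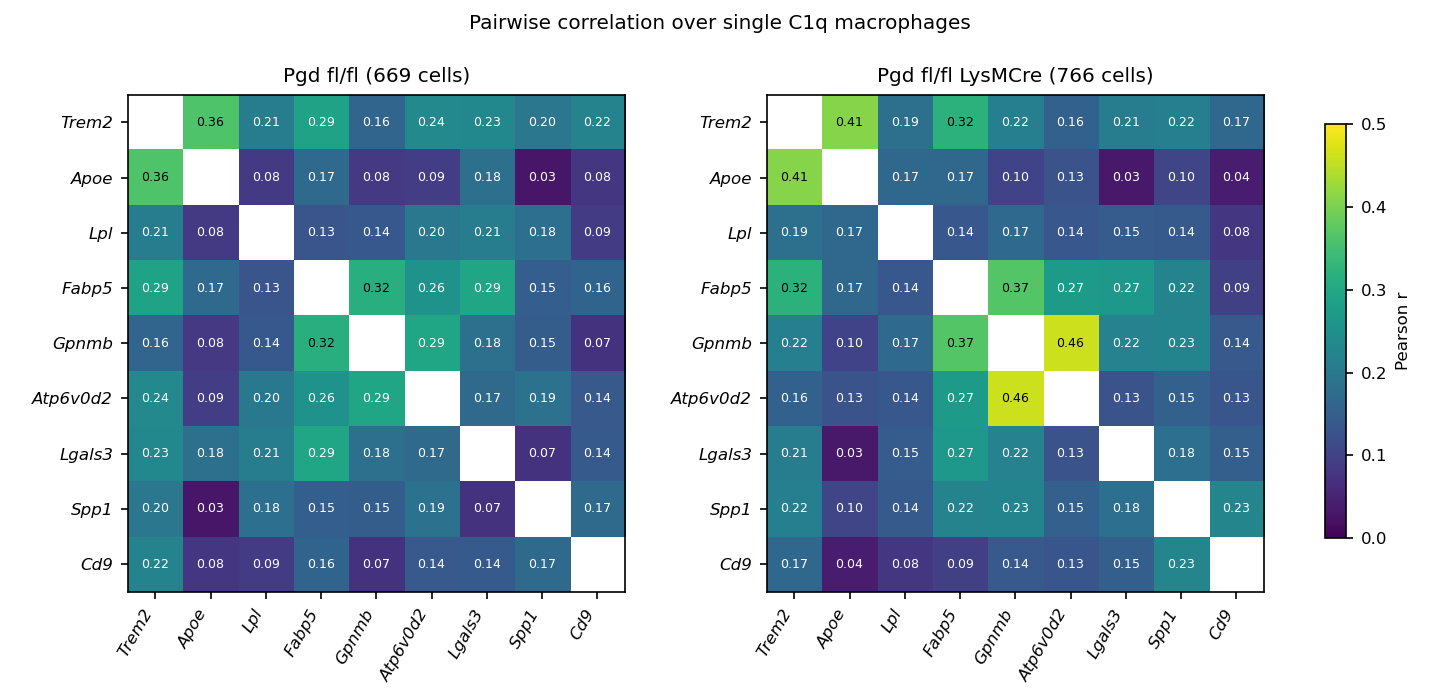
Pearson r between the 9 genes over single C1q macrophages of Pgd fl/fl (left, 669 cells) and Pgd fl/fl LysMCre (right, 766 cells), thinned to 5000 UMIs and log-normalized; colour and printed value give r. Among the brightest cells are Trem2 with Apoe (0.36 and 0.41) and Gpnmb with Fabp5 (0.32 and 0.37) and with Atp6v0d2 (0.29 and 0.46), and every off-diagonal value is positive.

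Cells with Gpnmb carried more of most other members. In Pgd fl/fl, 640 thinned cells had 0 Gpnmb UMIs, 18 had 1 and 11 had at least 2, and in Pgd fl/fl LysMCre the numbers were 716, 26 and 24. Fabp5 was at 324, 1711 and 2691 CPM in these 3 sets of Pgd fl/fl cells and at 454, 1515 and 3950.0 in those of Pgd fl/fl LysMCre. Lgals3 was ordered alike, at 1911, 3211 and 5418 and at 2003, 2931 and 5117. Spp1 was at 144, 322 and 1236 and at 231, 646 and 1058. These genes stood in the same order in both libraries. Lpl was at 98.4 and 527 in the cells with 0 and at least 2 in Pgd fl/fl and at 109 and 408 with LysMCre. Atp6v0d2, with few UMIs, was at 4.38, 133 and 109 in the sets of Pgd fl/fl and at 2.23, 7.69 and 150 with LysMCre. Trem2 was at 208, 533 and 527 in Pgd fl/fl and at 216, 385 and 658 in Pgd fl/fl LysMCre. Apoe was at 17230, 27344 and 22146 in Pgd fl/fl and at 14572, 19177 and 22008 with LysMCre. In Pgd fl/fl none of these genes rose from 1 Gpnmb UMI to at least 2. Cd9 was at 213, 389 and 236 in Pgd fl/fl, where the intervals of the outer sets overlapped. With LysMCre Cd9 was at 247 (231 to 264), 223 and 567 (440 to 718). C1qb, a gene of the gate, was at 4553 and 5055 and at 4140 and 4492. Of the cells with at least 2 Gpnmb UMIs, 6 of 11 and 16 of 24 lay in the Retnla-Arg1 subcluster.

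**Figure D5:**
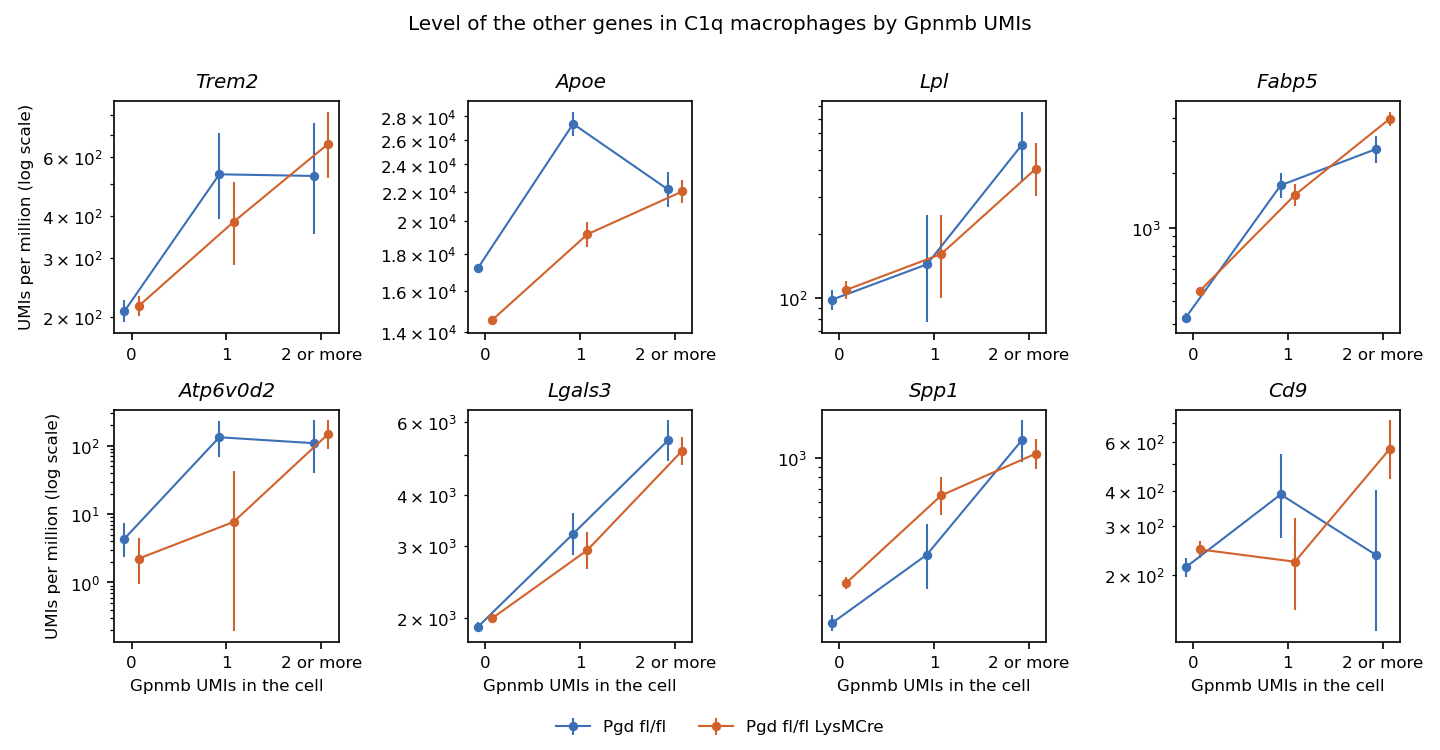
CPM (log scale, differing between panels) of the other 8 genes in C1q macrophages with 0, 1 or at least 2 Gpnmb UMIs after thinning to 5000 UMIs (640, 18 and 11 cells in Pgd fl/fl and 716, 26 and 24 in Pgd fl/fl LysMCre), with exact Poisson 95% intervals. Fabp5, Lgals3, Spp1 and Lpl climb from the first set to the last in both libraries, whereas Cd9 goes from 213 to 236 in Pgd fl/fl and from 247 to 567 in Pgd fl/fl LysMCre.

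As a further description, the genes whose level over single C1q macrophages was most like the mean of the 9 included genes of lysosomal proteases and of ferritin. Among 2511 candidates with at least 500 UMIs in each library they were Ctsb (0.512 and 0.514), Ftl1 (0.511 and 0.543), Ctsd (0.504 and 0.521), Timp2, Adam8, Pld3, Cd68, Ms4a7, Cd63 and Ctsa (0.342 and 0.358). The least like were Ly6a (-0.287 and -0.272) and the ribosomal genes Rps9, Rpsa, Rps13 and Rps24. Single members had partly different neighbours. Apoe was most like Ms4a7, C1qb and Ctsb, Trem2 most like Ctsd, Apoe and Ftl1, Gpnmb most like Fabp5, Adam8 and Ctsd, and Atp6v0d2 most like Fabp5, Pld3 and Ctsd. Fabp5 and Lpl both had Ctsd, Ftl1 and Ctsb nearest, and Lgals3 had Ftl1, Fth1 and Ctsz. Spp1 and Cd9 had weaker neighbours, Trem2, Capg and Cd9 for Spp1 and Spp1, Trem2 and Emp1 for Cd9, none above 0.227.

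Other genes of the pathway were read from lists, each beside the 9.76% and 6.15% of all genes past 1.5-fold higher and lower. The TREM2 signalling and shedding list had 0 of 8 measured genes past 1.5-fold and a median log2 ratio of -0.04. Its extremes were Hcst, an adaptor related to Tyrobp, at 0.36 (0.25 to 0.48) and Tyrobp itself at -0.25 (-0.28 to -0.22), with the sheddase Adam17 at -0.21 and the exchange factor Vav3 at 0.01 between them. In the list of lipid uptake, storage and export, 1 of 18 was past 1.5-fold higher and 0 lower. That gene was Fabp4, a fatty acid carrier like Fabp5, with 21 and 76 UMIs (1.47, 0.76 to 2.24), followed by the scavenger receptor Cd36 (0.58, 0.37 to 0.80), while the acyl-CoA synthetase Acsl1 was lowest (-0.55, -0.73 to -0.37), before the cholesterol hydroxylase Ch25h (-0.26, -0.57 to 0.05). Lipid-sensing transcription factors had 0 of 7 past 1.5-fold and the MiT/TFE factors, which drive lysosomal genes, 0 of 4, with medians of 0.08 and -0.10. Among the former, Srebf2 (0.29) and Nr1h2 (0.28) were highest and Ppard (-0.34) and Pparg (-0.23) lowest. The latter were Tfe3 (0.08), Tfec (-0.07), Mitf (-0.13) and Tfeb (-0.21), each with an interval that held 0.

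Lysosomal enzymes and membrane proteins were lower in Pgd fl/fl LysMCre in 16 of 19 genes, next to 5430 of 13180 over all genes. Their median log2 ratio was -0.22, with 1 past 1.5-fold higher (Ctsk, with 2 and 9 UMIs). The tartrate-resistant phosphatase Acp5 (536 and 339 CPM, -0.66, -0.72 to -0.60) and the cathepsin Ctss (4788 and 3118, -0.62, -0.64 to -0.60) were lowest among those with at least 50 UMIs and past 1.5-fold lower, and Ctsd was highest at 0.17 (0.13 to 0.21), before the channel gene Mcoln1 at 0.03. Subunits of the V-ATPase, the pump that Atp6v0d2 belongs to, had 0 of 15 past 1.5-fold and a median of -0.04, from Atp6v1f (0.15) and Atp6v1b2 (0.14) down to Atp6ap1 (-0.16) and Atp6v0a1 (-0.26). In a wider list of lipid-associated and disease-associated macrophage genes 6 of 21 were past 1.5-fold higher (Fabp4, Lgals1, Cst7, Capg, Ccl6 and Vat1) and 0 lower, with a median of 0.26. Its members went both ways, from the galectin Lgals1 at 1.01 (0.94 to 1.07) and Fabp4 to the tetraspanin Cd63 at -0.44 (-0.47 to -0.40) and the cathepsin Ctsl at -0.29 (-0.36 to -0.21).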

How the data were processed

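The authors deposited filtered Cell Ranger 6.1.2 output on mm10 (submitters' processing notes): unnormalized UMI counts per gene and barcode, with barcode and feature tables (6 files). They were not corrected for background RNA, and 12 multiplexing oligonucleotides were left out. Gene positions came from RefSeq (GRCm38.p6).

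Barcodes with 500 to 7500 genes were kept where mitochondrial UMIs did not exceed 15%. Both libraries were clustered with Seurat 5.3.0 in R 4.3.3 (2000 variable genes without the 9 members, Pgd and Lyz2, 30 exact principal components, 20 neighbours, resolution 0.8), and myeloid cells again. No annotation of the authors was used. Clusters were named from at least 3 detected markers, so names are rebuilt. Doublets were not called, and cells with lymphocyte UMIs were left out in an alternative.

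UMIs were summed per library and group and scaled to 1000000 (CPM). Ratios carry exact conditional, sums exact Poisson and shares exact Clopper-Pearson 95% intervals (Python 3.11.15, numpy 2.4.6, scipy 1.17.1), which cover counting error only. Co-expression used cells thinned to 5000 UMIs (3000 in an alternative). Statistics were tested on simulated data. Named genes were the 9 members, the 10 genes most and 5 least like the members and the 3 most like each member. From each list they were the 2 highest and 2 lowest ratios with at least 50 UMIs and some genes past 1.5-fold. The members and lists were chosen with earlier results of these data known. Clec7a and Ero1a of the lists were not analysed here. A further lysosomal gene is not reported here.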

Additional observations from a re-analysis of the deposited data

Results flagged for a closer look

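For 5 of the 9 genes, log2 ratios of Pgd fl/fl LysMCre over Pgd fl/fl had opposite signs in different myeloid groups. Each of these ratios had at least 10 UMIs in both libraries and a counting interval that leaves out 0. The difference between groups was not tested. The share of all genes that meet this rule was not computed, so the count is not a trait of the 9 genes. Apoe stood at 0.77 in cDC1-like cells (67 and 131 UMIs) and -2.03 in mature DC-like cells (753 and 304 UMIs). Of these, 1 cDC1-like cell of Pgd fl/fl LysMCre held 62 and 1 mature DC-like cell of Pgd fl/fl held 561, and without the 5 cells of each library with most Apoe UMIs the ratios were -0.09 and 0.26, with intervals that held 0. Spp1 was at 1.21 in mature DC-like cells, from 12 and 46 UMIs of which 1 cell held 24, and at -1.93 in the H2-M5 subcluster, from 200 and 84 UMIs of which 1 Pgd fl/fl cell held 72. Cd9 went from 0.47 in the lymphocyte-transcript subclusters to -0.76 in Ccl8 macrophages (89 and 50 UMIs). Lpl was at 0.45 in the Retnla-Arg1 subcluster and -1.05 in the Pclaf subcluster. Lgals3 was at 0.84 in classical monocyte-like cells and -0.22 in the Pclaf subcluster, or 1.12 and 0.04 (-0.08 to 0.15) without the 5 cells with most Lgals3 UMIs.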

How the results depend on the processing

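No paired analysis was possible because each genotype has 1 library, so no replicate can be left out either. The median log2 ratio of the 9 genes (0.07) stayed positive in all 13 alternatives. It moved to 0.19 with a gate on at least 3000 C1q CPM, 0.22 over clusters named macrophage, 0.30 without cells with lymphocyte UMIs, 0.21 as a mean of single-cell values and, both chosen after seeing the data, 0.29 over the Hes1, Vcam1, Ccl8 and Retnla-Arg1 groups and 0.28 in a further random draw of the thinning. The number of genes past 1.5-fold higher, 1, became 3 without cells with lymphocyte UMIs and over those 4 groups. It became 2 after thinning in either draw, as a mean of single-cell values or without the 5 cells with most UMIs. The share of all genes past 1.5-fold was not computed in these alternatives. Lgals3 changed sign over clusters named macrophage (-0.035). Spp1 (0.60 to 1.34), Fabp5 (0.43 to 0.80), Gpnmb (0.33 to 1.00), Cd9 (0.19 to 0.37) and Lpl (0.03 to 0.48) were positive throughout. Apoe (-0.35 to -0.05) was negative throughout, while Trem2 was positive in 9 and Atp6v0d2 in 5 of the 13. With a minimum of 50 UMIs, 5.32% of all genes were past 1.5-fold higher and 2.83% lower. The share of cells with at least 7 genes was 12.7% and 20.2% without thinning and 2.23% and 4.52% thinned to 3000 UMIs, and in Pgd fl/fl LysMCre 11.2% in the 4 groups. A further draw gave 4.78% and 7.83%. The causes were not tested. Median pairwise correlations lay between 0.125 and 0.213, and 7 members were higher in macrophages, taken with unnamed subclusters whose highest marker score was for macrophages, than in classical monocyte-like, mature DC-like, cDC1-like and neutrophil-like cells at both clustering resolutions. Atp6v0d2 and Gpnmb are limited by depth, with 87 to 445 UMIs per library.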

Other observations

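Genes of tissue-resident macrophages, which the text above leaves out, were higher with LysMCre in 9 of 10 measured genes of C1q macrophages. Over all genes this held for 7750 of 13180. Past 1.5-fold higher were 7 of them (9.76% of all genes), and the median log2 ratio was 1.74. Some of the 7 had few UMIs, such as Timd4 (1 and 11), Cd163 (2 and 15) and Lyve1 (3 and 31), while Gas6 had 106 and 441. A cluster of all cells with Retnla, Folr2, F13a1 and Mrc1 among its top 10 genes held 15 and 51 cells. Its part in these ratios was not tested. The folate receptor Folr2 had 14 and 93 UMIs (2.34, 1.53 to 3.27) and the carbonyl reductase Cbr2 14 and 64 (1.81, 0.96 to 2.75). The selenium carrier Selenop, counted among the 9, was level, at 472 and 473 CPM (0.00, -0.05 to 0.06). The chemokine Pf4 was lower (-0.46, -0.56 to -0.35).

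Among hypoxia and glycolysis genes, 2 of 11 were past 1.5-fold higher and 0 lower. The prolyl hydroxylase Egln3 had 43 and 143 UMIs (1.35, 0.85 to 1.87) and Ankrd37 72 and 158 (0.75, 0.34 to 1.17). The growth factor Vegfa was lower, at 201 and 168 CPM (-0.26, -0.35 to -0.17), and the glucose transporter Slc2a1 was at 80.9 and 74.7 (-0.11, -0.25 to 0.03).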
